A study of Mus musculus with 39 samples.

Results

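The comparison set microglia of mice injected with lipopolysaccharide (LPS) against microglia of mice injected with saline, in the study's arm with control prenatal history and without PLX. The members were the 4 CON_CON_LPS libraries labelled replicates 1, 2, 4 and 5 and the 4 CON_CON_SAL libraries labelled replicates 1 to 4, which makes 8 of 39 libraries, chosen by their labels. CON_CON_LPS replicate 3 was left out because its title marks it for exclusion, and no reason is given. Every library came from male mice aged 8 to 10 weeks. LPS was given into the peritoneum at 4500 endotoxin units per gram of body weight, and cells were taken 18 hours after the LPS or saline injection. Microglia were sorted from dissociated striatum as live, CD11b-positive, CD45-low and P2RY12-positive cells, so the cells of both groups were selected on those 3 surface proteins. The first term of a group name is the prenatal history, control (CON) or maternal immune activation (MIA), the second is CON or PLX (a term without a definition in the labels), and the third is the injection. The labels give no strain, and they do not say whether replicates are separate animals or pools. The p-values therefore speak only to the spread among libraries, and that spread may be technical. It was estimated over the 37 libraries fitted together and not over the compared libraries alone. The study's question here was how prenatal immune stress changes the reaction of adult microglia, and this arm holds the reaction with neither the prenatal stress nor PLX.

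LPS is a glycolipid on the surface of Gram-negative bacteria and is bound by the CD14, MD-2 and TLR4 proteins. One branch of signalling runs through MyD88 to NF-kB and the genes of inflammatory cytokines, and another through TRIF to interferon, whose receptors signal through JAK kinases and STAT factors to interferon-stimulated genes. Microglia, the resident macrophages of the brain, hold a resting programme that depends on TGF-beta and on factors such as SALL1, and LPS given outside the brain is known to change it.

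The deposited table lists 55487 gene identifiers. Of these, 13417 passed the filter on low counts and were tested, and 15585 more had a count in some library but were not tested. The LPS libraries held 2957553 to 4834546 rounded estimated counts and the saline libraries 2797704 to 3942937. Mitochondrial ribosomal RNA, which the amplification does not remove, took 12%, 16.6%, 6.14% and 15.7% of the counts in the LPS libraries, against 12.1%, 12.4%, 10.1% and 9.70% in the saline libraries. Levels are given as CPM, a gene's count scaled to a common normalised library size, always in the order of replicates 1, 2, 4 and 5 for LPS and 1 to 4 for saline. The 4 LPS libraries differed far more among themselves than the saline libraries did, with a chi-square per degree of freedom of 15.7 to 64.7 between pairs of LPS libraries and 4.08 to 7.61 between pairs of saline libraries. In a principal component analysis of the 8 libraries the first component held 49.9% of the variance and separated the LPS libraries from the saline libraries. The second held 19.1% and separated LPS replicates 1 and 4 from LPS replicates 2 and 5, with the saline libraries between them.

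The sorted cells carried microglial markers in both groups. The summed level of 12 microglial marker genes was 8100.5, 15996, 7969.3 and 13801 CPM in the LPS libraries and 19004 to 21588 CPM in the saline libraries. Markers of lymphocytes were at or near 0, at 0.256 to 1.07 CPM after LPS and 0 to 0.659 CPM after saline for 10 genes together, and none of the 10 was tested. The sum of 12 neuronal markers was 9.21 to 29.3 CPM after LPS and 29.4 to 43.2 CPM after saline, and that of 10 endothelial and mural markers 12.3 to 18.5 CPM after LPS and 34.2 to 44.6 CPM after saline. Astrocyte markers summed to 87.2 to 201 CPM after LPS and 161 to 291 CPM after saline, oligodendrocyte markers to 28.1 to 89.1 CPM after LPS and 50.6 to 62.9 CPM after saline, and erythroid markers to 0.803 to 3.05 CPM after LPS and 0.234 to 25.0 CPM after saline. In every LPS library Fn1, given below, made up most of the summed monocyte markers. Monocyte markers summed to 26.5 to 157 CPM after LPS and 7.01 to 11.1 CPM after saline, with no overlap. Their part in the results below was not tested. In bulk libraries such as these, fewer cells of a type cannot be told apart from less RNA per cell.

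**Figure D1:**
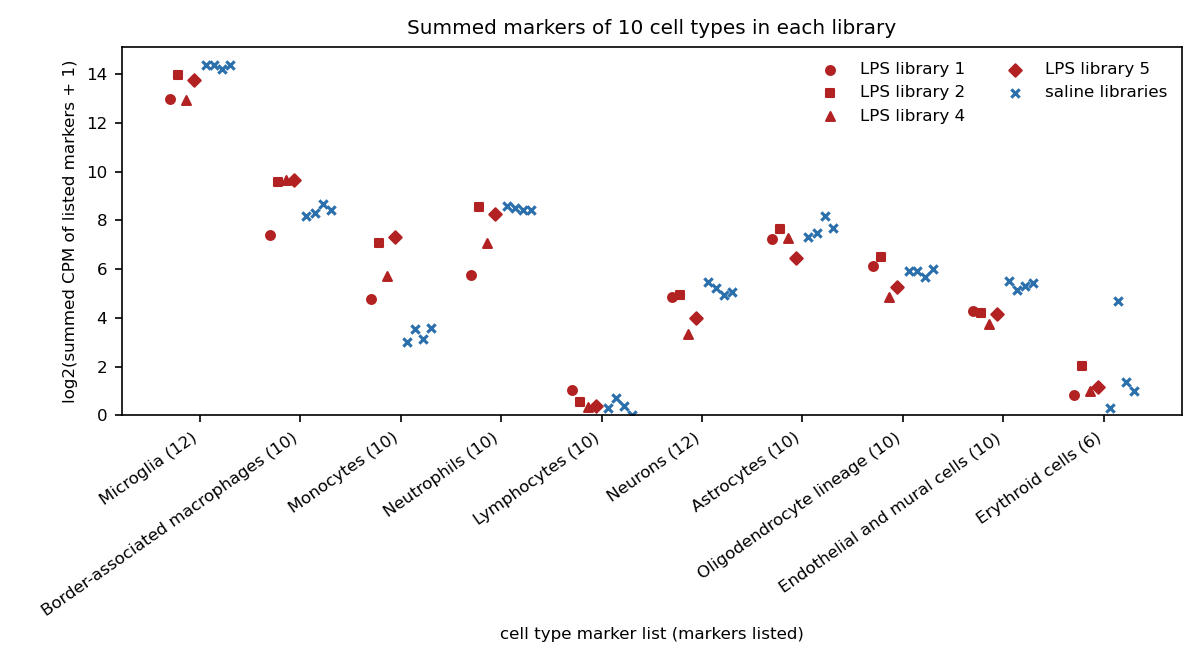
Summed CPM of 10 lists of cell type marker genes (log axis) in the 4 LPS libraries, drawn left, and the 4 saline libraries, drawn right of them, with 1 point per library. Microglial markers lie between 7969 and 15996 CPM after LPS and between 19004 and 21588 CPM after saline. Summed monocyte markers, mostly Fn1 in each LPS library, lie higher in every LPS library than in any saline library.

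LPS changed a large share of the genes these cells express. By edgeR's quasi-likelihood test, with Benjamini-Hochberg adjusted p under 0.05 over all genes tested, 1840 genes (13.7%) rose and 1320 (9.84%) fell, which is 23.6% of the genes tested in either direction. Changes are given as log2 fold changes of LPS over saline with their standard errors (SE), and "rose" and "fell" are used only of genes that passed this test. The median log2 change over all genes tested was 0.06, and the counts of each gene list are set against these shares. Beside a list's median, its lowest and highest values with 1 of the 8 libraries left out are given where either differs from it by more than 1.5 times or in sign. More than 2-fold, 1168 genes (8.71%) rose and 928 (6.92%) fell, more than 4-fold 495 rose and 327 fell, and more than 16-fold 172 rose and 39 fell. The LPS and saline libraries did not overlap in 1265 of the genes that rose and 1199 of those that fell, where 11.7% of all genes tested lay higher without overlap after LPS and 12.9% lower. In 42 genes that rose every saline library had 0 counts, and in 8 that fell every LPS library had 0. Among genes at 0 after saline, Saa3, an acute-phase serum amyloid chosen after its values were seen, had 515, 188, 55.8 and 423 CPM in the LPS libraries, against 0, 0, 0 and 0 CPM in the saline libraries, at least 1370.4-fold higher against a floor of 3 counts over the group. Genes that rose took 16.9% to 21.8% of the counts in the LPS libraries and 8.47% to 9.13% in the saline libraries, and genes that fell took 5.7% to 8.43% after LPS and 15.7% to 16.9% after saline. Fitted without the other arms, the same comparison gave 1205 genes that rose and 1118 that fell, and with both libraries marked for exclusion it gave 1385 that rose and 747 that fell.

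**Figure D2:**
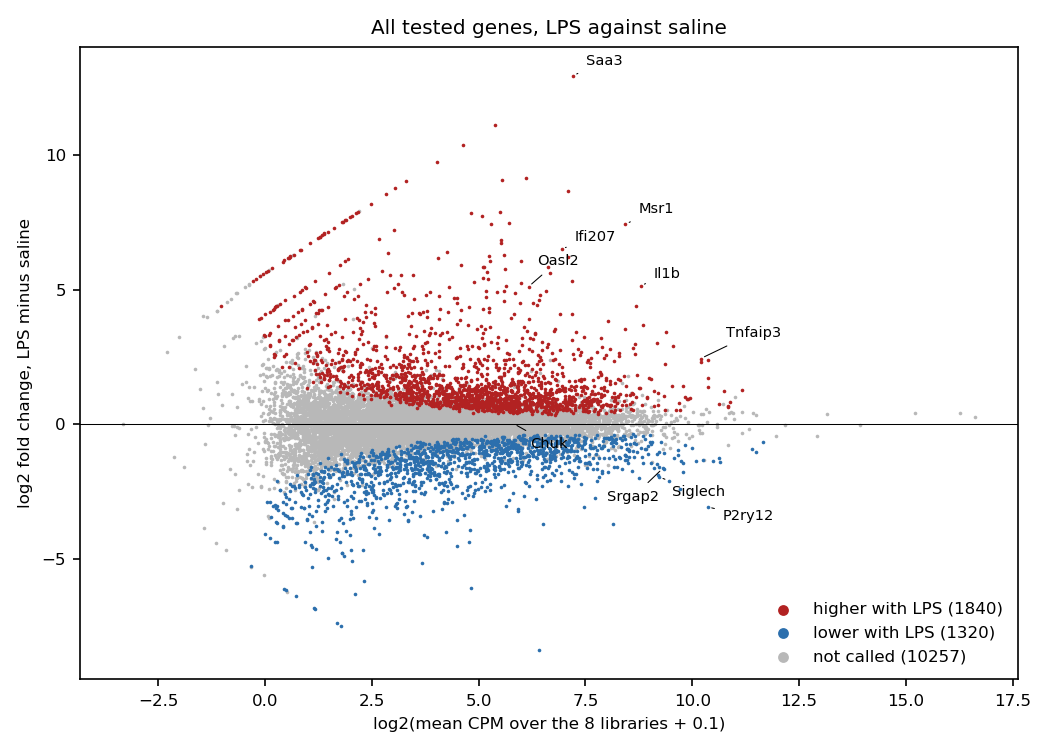
Log2 fold change of LPS over saline (vertical axis) against mean CPM of the 8 libraries (horizontal axis, on a log2 scale) for the 13417 genes tested, with 1840 genes that rose and 1320 that fell coloured. Genes that rose spread further from 0 than genes that fell, with 172 against 39 past 16-fold.

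The genes that rose with the smallest p were led by members of the interferon-inducible p200 family and by receptors of phagocytes. Ifi207 (ENSMUSG00000073490.11), of the p200 family, had 134, 288, 389 and 159.9 CPM in the LPS libraries, against 2.34, 1.32, 4.38 and 2.53 CPM in the saline libraries. Its lowest LPS library stood far above its highest saline library, and its log2 change was 6.51 ± 0.41 (adjusted p = 1.06e-13). Ifi204, a DNA-binding member of the same family, had 113, 345, 494 and 187 CPM in the LPS libraries, against 8.42, 4.61, 9.69 and 5.56 CPM in the saline libraries, with a log2 change of 5.32 ± 0.38. The groups again did not overlap. Msr1, the class A scavenger receptor, had 700.4, 640.1, 440.1 and 973 CPM in the LPS libraries, against 2.34, 5.27, 2.50 and 5.81 CPM in the saline libraries and rose by 7.43 ± 0.52 (adjusted p = 2.53e-12). Fcgr4, an activating Fc receptor for immunoglobulin G, had 109, 128, 99.0 and 141 CPM in the LPS libraries, against 4.68, 7.24, 2.19 and 6.57 CPM in the saline libraries and rose by 4.52 ± 0.33. In both receptor genes the 4 LPS libraries lay close together and the saline libraries were at a few CPM. Cd300lf, an inhibitory myeloid receptor for lipids, had 389, 99.6, 457 and 138 CPM in the LPS libraries, against 0.468, 0.659, 0.938 and 0.505 CPM in the saline libraries and rose by 8.68 ± 0.66, with LPS replicates 1 and 4 highest. Dram2, a lysosomal membrane protein of autophagy (2.40 ± 0.19), Srgn, the proteoglycan of secretory granules (3.85 ± 0.33), Lgals3bp, a secreted galectin-binding glycoprotein (2.52 ± 0.22), the forkhead factor gene Foxn2 (2.00 ± 0.18), the immunoglobulin superfamily gene Igsf6 (2.78 ± 0.26) and the tetraspan membrane protein genes Ms4a6d (3.43 ± 0.30) and Ms4a6c (4.93 ± 0.43) completed the 12 named for the smallest p among genes without overlap and with a mean of at least 50 CPM.

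The genes that fell with the smallest p were led by Srgap2, a GTPase-activating protein that shapes cell protrusions. Srgap2 had 243, 349, 316 and 326 CPM in the LPS libraries, against 914, 924, 1038 and 975 CPM in the saline libraries, a log2 change of -1.64 ± 0.19 (adjusted p = 1.23e-07). Both groups were tight and far apart. P2ry12, the ADP receptor that guides microglial processes and was part of the gate, had 176, 380.0, 247 and 313 CPM in the LPS libraries, against 2192, 2640.1, 2069.9 and 2503 CPM in the saline libraries, a change of -3.08 ± 0.38 (adjusted p = 3.64e-07). Every LPS library was several-fold below every saline library although the cells were sorted for the P2RY12 protein. Siglech, a sialic acid-binding receptor of microglia, had 290.0, 283, 216 and 186 CPM in the LPS libraries, against 886, 1031, 942 and 948 CPM in the saline libraries, a change of -1.96 ± 0.27. Also named were Hpgds, the prostaglandin D synthase of blood-derived cells (-1.5 ± 0.21), Slc12a2, the sodium, potassium and chloride cotransporter (-1.77 ± 0.24), Lims1, a focal adhesion adaptor (-1.27 ± 0.16), Gprasp1, which sorts G protein-coupled receptors (-2.07 ± 0.27), Ttc3, a ubiquitin ligase (-1.54 ± 0.21), the cadherin gene Cdh23 (-2.34 ± 0.33), Tmem135 (-1.10 ± 0.15) and the transcription factor genes Ebf3 (-2.81 ± 0.38) and Sox4 (-1.96 ± 0.27). All of these kept their call when any 1 of the 8 libraries was left out.

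By difference in mean CPM, the 8 largest increases were in Dst, Fth1, Ctsl, Tnfaip3, Dusp1, Hspa5, Plek and Il1a. Dst, which encodes the cytoskeletal linker dystonin, averaged 3261 ± 1546 CPM after LPS and 1353 ± 98.2 CPM after saline (SD, n = 4 each). Fth1, the ferritin heavy chain, had 2853, 1864, 662 and 3480.1 CPM in the LPS libraries, against 491, 461, 343 and 383 CPM in the saline libraries, with no overlap although LPS replicate 4 was well below the other LPS libraries. Ctsl, which encodes the lysosomal protease cathepsin L, had 1983, 1831, 1468 and 2768 CPM in the LPS libraries, against 697, 565, 529 and 682 CPM in the saline libraries, and all LPS libraries lay above all saline libraries. Tnfaip3, the A20 enzyme that ends NF-kB signalling, had 2416, 2161, 152 and 3201 CPM in the LPS libraries, against 386, 356, 302 and 421 CPM in the saline libraries, and Dusp1, a phosphatase of MAP kinases, had 2226, 1949, 701 and 3042 CPM in the LPS libraries, against 379, 400.1, 271 and 531 CPM in the saline libraries. In Tnfaip3 LPS replicate 4 lay below every saline library and the other LPS libraries far above them, while in Dusp1 the groups did not overlap. Hspa5, an endoplasmic reticulum chaperone (1.23 ± 0.46), Plek, the cytoskeletal protein pleckstrin (1.39 ± 0.45), and Il1a, interleukin 1 alpha (2.89 ± 0.96), were not called in every fit that left out 1 library. The call of Hspa5 was lost in 6 of the 8 such fits (0.67 without LPS replicate 2), that of Plek in 3 (1.11, 1.09 and 1.30 without LPS replicates 2 and 5 and saline replicate 3) and that of Il1a in 5 (lowest 2.24 without LPS replicate 5). Among the largest decreases in mean CPM, beside P2ry12, were Macf1, a cytoskeletal linker (-1.02 ± 0.19), and the lysosomal enzyme gene Ctsd (-0.92 ± 0.23). The membrane skeleton gene Epb41l2 (-1.41 ± 0.28), the TGF-beta receptor gene Tgfbr1 (-1.25 ± 0.23), Ivns1abp (-1.38 ± 0.26) and Plxdc2 (-2.39 ± 0.36) were others. Plxdc2 averaged 266 ± 144 CPM after LPS and 1399 ± 28.0 CPM after saline (SD, n = 4 each).

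Genes of the resting microglial programme fell. Of 30 tested homeostatic genes, 1 rose and 20 fell (median log2 change -1.39), against 9.84% of all genes that fell. In 23 of the 30 the groups did not overlap, against 24.6% of all genes tested. Tmem119, a microglial surface protein of the plasma membrane, had 75.5, 523, 169 and 300.1 CPM in the LPS libraries, against 926, 829, 731 and 838 CPM in the saline libraries. Gpr34, a receptor for lysophosphatidylserine, had 6.43, 86.0, 32.2 and 35.8 CPM in the LPS libraries, against 425, 557, 527 and 583 CPM in the saline libraries. Slc2a5, the fructose transporter, had 2.95, 31.2, 5.37 and 11.4 CPM in the LPS libraries, against 162, 169.6, 159.7 and 189 CPM in the saline libraries. In all 3 the saline libraries lay within a narrow band, all LPS libraries were lower, and LPS replicate 1 was the lowest and replicate 2 the highest of the LPS libraries; the log2 changes were -1.64 ± 0.47, -3.70 ± 0.89 and -3.72 ± 0.79. P2ry13, a second ADP receptor (-1.68 ± 0.35), Olfml3 (-2.11 ± 0.55), the adhesion receptor gene Adgrg1 (-1.98 ± 0.45), the ectonucleotidase gene Entpd1 (-1.43 ± 0.36), the Golgi gene Golm1 (-1.31 ± 0.22), Scoc (-1.75 ± 0.46), Ecscr (-1.45 ± 0.26) and Fcrls (-1.15 ± 0.26) fell with them. Gpr84, a receptor for medium-chain fatty acids, was the exception and rose (2.29 ± 0.58), with LPS replicate 4 within the saline range. The receptor genes Cx3cr1 (-1.34, adjusted p = 0.149) and Csf1r (-0.43, adjusted p = 0.0506) and Cd164 (0.06) were not called. Without LPS replicate 2 Cx3cr1 (-1.99, adjusted p = 0.0459) and Csf1r (-0.56) were called, and Csf1r was also called without LPS replicate 5 (-0.50). With both libraries marked for exclusion in the fit, 7 of the homeostatic genes fell, and Tmem119 (log2 change -1.07), Gpr34 (-1.69) and Slc2a5 (-1.88) no longer passed. Of the 12 microglial markers, 8 fell and 0 rose.

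The gate genes other than P2ry12 were not called. Itgam, which encodes CD11b, had 982, 2232, 686 and 1989 CPM in the LPS libraries, against 1818, 1709, 1379 and 1486 CPM in the saline libraries (-0.12 ± 0.26), and Ptprc, which encodes CD45, had 719.7, 754, 456 and 643 CPM in the LPS libraries, against 565, 512, 579 and 614 CPM in the saline libraries (0.18 ± 0.20). The groups overlapped in both.

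Among 22 tested transcription factors of microglial identity, 3 rose and 8 fell (median log2 change -0.39, -0.52 without LPS replicate 5 and -0.22 without LPS replicate 1), and 5 fell without LPS replicate 1 or without saline replicate 1, 2 or 4. Sall1, the zinc finger factor that sets microglial identity, had 109, 318, 262 and 321 CPM in the LPS libraries, against 960.1, 909, 861 and 971 CPM in the saline libraries, a change of -1.87 ± 0.44. Mef2c, which restrains the inflammatory response of microglia, had 229, 405, 254 and 370.2 CPM in the LPS libraries, against 679, 687, 693 and 674 CPM in the saline libraries, a change of -1.12 ± 0.22. Neither gene overlapped between groups. Smad3 (-1.14 ± 0.31), Etv1 (-1.36 ± 0.35) and Tal1 (-1.52 ± 0.35) fell too, while Runx1 (0.72 ± 0.19), Klf4 (1.58 ± 0.40) and Jdp2, an AP-1 repressor (2.64 ± 0.55), rose. In the TGF-beta pathway 0 of 14 tested members rose and 6 fell (median log2 change -0.43); 3 fell without LPS replicate 1, and 1 rose without LPS replicate 2. Beside Tgfbr1 and Smad3, the co-receptor gene Eng (-1.33 ± 0.21) fell, and the ligand gene Tgfb1 fell (-0.95 ± 0.27) but was not called without LPS replicate 1 (adjusted p = 0.0545). Ski (-0.03) was not called. Of the purinergic receptors and nucleotide enzymes, 3 of 15 tested members rose and 4 fell (median log2 change -0.12, -0.23 without saline replicate 3 and -0.10 without LPS replicate 2). P2ry2, a receptor for ATP and UTP, stood at 3.98 to 32.7 CPM after LPS and 0 to 1.25 CPM after saline and rose by 5.07 ± 1.06, while Enpp1 (-0.12) was not called; 1 rose without saline replicate 4.

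Of the 16 tested genes that bind LPS or carry its signal, 6 rose and 2 fell (median log2 change 0.36); without LPS replicate 1, 3 rose. The receptor gene Tlr4 had 38.6, 137, 155 and 108 CPM in the LPS libraries, against 119, 124, 112 and 113 CPM in the saline libraries. LPS replicate 1 was far below the other libraries, the others lay on both sides of the saline range, and the change was -0.09 ± 0.40 (adjusted p = 0.896). The co-receptor gene Cd14 had 659, 649, 174 and 1291 CPM in the LPS libraries, against 129, 109, 93.8 and 121 CPM in the saline libraries and rose by 2.61 ± 0.46 (adjusted p = 8.31e-05), with all LPS libraries above all saline libraries and LPS replicate 4 the lowest of them. Cd180, which with MD-1 restrains TLR4 signalling in macrophages, had 162, 206, 119 and 195 CPM in the LPS libraries, against 671, 745, 614 and 715 CPM in the saline libraries and fell by 2.01 on the log2 scale. Ly86, which encodes MD-1, changed by -0.83 ± 0.22. In that receptor pair the groups did not overlap. Ly96, which encodes MD-2 (-1.12, adjusted p = 0.0893), and Myd88 (0.37) were not called, while Ly96 was called without LPS replicate 2 (-1.45, adjusted p = 0.0456). Among the other Toll-like receptors, 3 of 10 tested members rose and 2 fell (median log2 change 0.41). Tlr2, the receptor of lipoproteins, had 811, 479.6, 191 and 654 CPM in the LPS libraries, against 87.0, 84.6, 83.4 and 89.6 CPM in the saline libraries and rose by 2.63 ± 0.39. The endosomal RNA receptor genes Tlr7 (1.41 ± 0.37) and Tlr13 (0.70 ± 0.16) rose, and Tlr5, the flagellin receptor gene, fell (-1.44 ± 0.34), all without overlap. Tlr6 (0.15) was not called. Lower calls among these receptors numbered 1 without LPS replicate 4 or without saline replicate 1 or 4.

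NF-kB itself is held in check by IkB proteins, which it induces as feedback. Of 15 tested subunits, IkB proteins and kinases, 5 rose and 0 fell (median log2 change 0.75, 0.45 without LPS replicate 1 and 1.14 without LPS replicate 4); 3 rose without saline replicate 3. Bcl3, a nuclear IkB protein, had 53.0, 46.9, 28.1 and 48.2 CPM in the LPS libraries, against 4.44, 2.30, 1.25 and 3.54 CPM in the saline libraries and rose by 3.87 ± 0.45 (adjusted p = 9.56e-08), without overlap. Nfkbiz, another nuclear IkB protein, had 813, 1507, 108 and 1884 CPM in the LPS libraries, against 305, 227, 144 and 250 CPM in the saline libraries and rose by 2.22 ± 0.62, and Nfkbib, a cytoplasmic IkB, rose by 1.64 ± 0.36. In both, LPS replicate 4 stood below the saline range or within it while the other LPS libraries stood above. The subunit genes Nfkb1 (0.17), Rel (0.24) and Rela (0.49) were not called, and the kinase gene Chuk was nearly level, with 50.1, 63.1, 53.0 and 60.3 CPM in the LPS libraries, against 52.8, 51.4, 61.3 and 57.1 CPM in the saline libraries (0.02 ± 0.18, 95% interval -0.34 to 0.39). Among the C/EBP, AP-1 and ATF factors 5 of 19 tested members rose and 0 fell (median log2 change 0.50); 3 rose without saline replicate 3. Cebpb had 37.5, 33.3, 23.3 and 54.2 CPM in the LPS libraries, against 6.31, 7.24, 5.31 and 8.08 CPM in the saline libraries and rose by 2.45 ± 0.44, without overlap, and Cebpd (1.01 ± 0.26) and Fosl2 (1.29 ± 0.29) rose. Fosb (-0.08) had the largest p.

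Cytokine genes rose, but not in every LPS library. Of the 26 ligands and decoys listed, 11 of 20 tested members rose and 1 fell (median log2 change 2.45); the member that fell was not called without LPS replicate 1. Tnf had 546, 1347, 33.8 and 1518 CPM in the LPS libraries, against 97.0, 69.8, 40.6 and 56.8 CPM in the saline libraries, a change of 3.70 ± 0.81 (adjusted p = 0.0012). Il1b had 146, 1147, 9.47 and 2148 CPM in the LPS libraries, against 39.5, 24.7, 12.2 and 21.0 CPM in the saline libraries, a change of 5.14 ± 1.36 (adjusted p = 0.00608). In both genes LPS replicates 1, 2 and 5 were above all saline libraries, and LPS replicate 4 was below every saline library. Of the 11 ligand and decoy genes that rose, 8 were highest in LPS replicate 5 and 8 were lowest in LPS replicate 4. The mean log2 level of the tested list members stood 1.51, 2.27, 0.48 and 2.54 above the saline mean in LPS replicates 1, 2, 4 and 5. The decoy gene Il1r2 was an exception to this order. Il1r2, which binds interleukin 1 without signalling, had 36.1, 64.0, 152 and 295 CPM in the LPS libraries, against 0.234, 0, 0.313 and 0.253 CPM in the saline libraries, a ratio of counts of 619.9 (95% interval 212 to 3008), and LPS replicates 5 and 4 were highest. Il1rn, the interleukin 1 receptor antagonist, had 340.0, 25.8, 7.16 and 42.8 CPM in the LPS libraries, against 0.468, 0.659, 0 and 1.01 CPM in the saline libraries and rose by 7.47 ± 1.70, mostly in LPS replicate 1. Tnfsf9, the 4-1BB ligand (4.43 ± 0.88), Osm, oncostatin M (3.20 ± 0.79), Csf1, a survival factor of microglia (3.06 ± 0.70), Il12b (4.32 ± 1.22) and Il18bp, a decoy of interleukin 18 (1.16 ± 0.33), rose. Il6 (2.01, adjusted p = 0.0624), Il18 (0.05) and Tnfsf10 (-0.02) were not called, although Il6 was without LPS replicate 4 (2.42, adjusted p = 0.0137), and Il10, Il23a and Ifnb1 had too few counts to be tested.

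**Figure D3:**
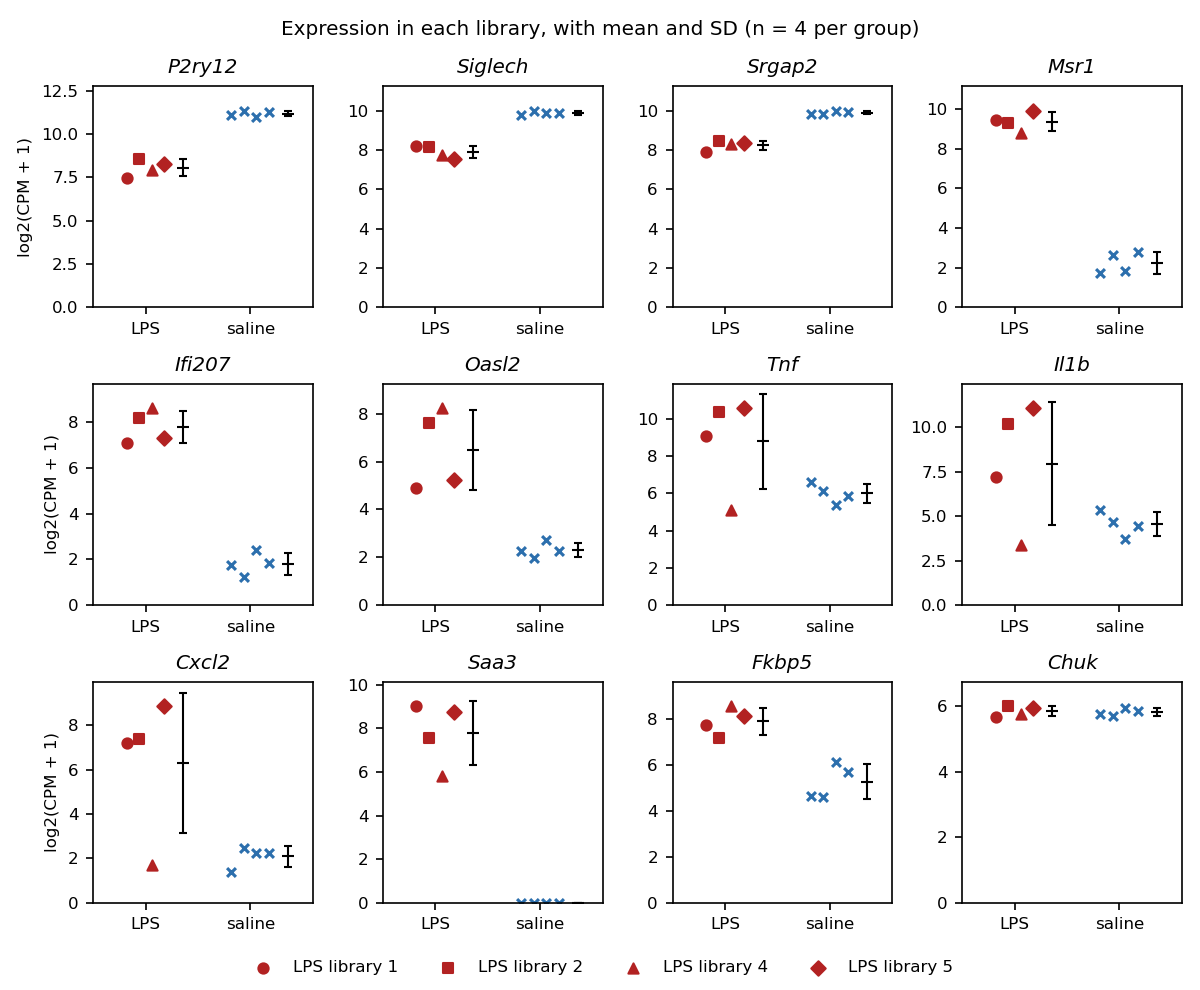
Level of 12 genes, as log2 of CPM plus 1, in each of the 4 LPS libraries (left in each panel) and the 4 saline libraries (right), with the mean and SD of each group. P2ry12, Siglech and Srgap2 lie lower and Msr1, Ifi207, Oasl2, Saa3 and Fkbp5 higher in every LPS library, Chuk lies near the saline level, and LPS replicate 4 lies within or below the saline range for Tnf, Il1b and Cxcl2.

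The share of cytokine receptor genes that rose, 37.5%, was above the 13.7% of all genes tested. The share that fell, 12.5%, was near the 9.84% of all genes tested. Of 24 tested receptor genes, 9 rose and 3 fell (median log2 change 0.33); 6 fell without LPS replicate 2. Csf2rb, the signalling subunit shared by the receptors of GM-CSF, interleukin 3 and interleukin 5, had 359.9, 332, 443 and 423 CPM in the LPS libraries, against 117, 124, 117 and 112 CPM in the saline libraries and rose by 1.73 ± 0.16 (adjusted p = 8.76e-10). Il4ra had 355, 348, 276 and 272 CPM in the LPS libraries, against 101, 105, 91.3 and 101 CPM in the saline libraries and rose by 1.65 ± 0.20. Il2rg, the common gamma chain, had 56.5, 34.0, 14.8 and 67.3 CPM in the LPS libraries, against 1.40, 1.32, 1.88 and 2.78 CPM in the saline libraries and rose by 4.51 ± 0.49. None of these overlapped between groups. Il15ra (3.35 ± 0.41), Csf2rb2 (1.61 ± 0.18), the death receptor gene Fas (ratio of counts 27.4 (95% interval 7.24 to 232)) and Il1rap (1.15 ± 0.28) rose, while Il6st, which encodes the shared receptor gp130 (-0.90 ± 0.20), and Tnfrsf13b, a receptor for BAFF and APRIL (-1.06 ± 0.26), fell. Tnfrsf14 (0.08) was not called.

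Chemokine genes rose in most LPS libraries. Of 9 tested CC chemokines, 7 rose and 1 fell (median log2 change 3.54). Ccl5, which draws T cells and monocytes, had 201, 11.7, 18.7 and 134 CPM in the LPS libraries, against 0.701, 0.329, 1.88 and 0.253 CPM in the saline libraries and rose by 6.83 ± 1.16, highest in LPS replicates 1 and 5. Ccl3 had 928, 618, 17.4 and 959 CPM in the LPS libraries, against 67.8, 77.4, 30.3 and 41.7 CPM in the saline libraries and rose by 3.54 ± 0.97. LPS replicate 4 was below every saline library for Ccl3 and the other LPS libraries stood far above it. Ccl7 was at least 24.3-fold higher and Ccl22 had a ratio of counts of 19.9 (95% interval 6.49 to 98.9). Ccl6, which resting microglia express, fell (-1.55 ± 0.37), and Ccl9 (1.01) was not called. Of 7 tested CXC chemokines, 5 rose and 0 fell (median log2 change 4.42). Cxcl2, which draws neutrophils, had 148, 166, 2.30 and 463 CPM in the LPS libraries, against 1.64, 4.61, 3.75 and 3.79 CPM in the saline libraries and rose by 5.83 ± 1.10, again with LPS replicate 4 within the saline range. Cxcl16 had 96.9, 117, 39.1 and 139 CPM in the LPS libraries, against 25.2, 26.0, 30.0 and 21.5 CPM in the saline libraries and rose by 1.93 ± 0.38 without overlap. Cxcl10 rose by 3.45 ± 0.84, Cxcl9 was at least 41.0-fold higher and Pf4 (0.84) was not called. Of 15 tested receptors for chemoattractants, 7 rose and 1 fell (median log2 change 0.43, 0.05 without LPS replicate 5 and 0.76 without LPS replicate 1); 3 fell without LPS replicate 2. C5ar1, the receptor of complement fragment C5a, had 261, 836, 588 and 1184 CPM in the LPS libraries, against 102, 108, 71.3 and 87.1 CPM in the saline libraries and rose by 2.96 ± 0.37. C3ar1 rose by 1.43 ± 0.33, Fpr1 was at least 68.2-fold higher, Fpr2 at least 27.9-fold higher and Cxcr2, a chemokine receptor also used as a neutrophil marker, at least 34.3-fold higher. Ccr1 (0.43) and the monocyte receptor gene Ccr2 (-0.83) were not called.

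Genes of the interferon pathway rose as a group, and with another order of the LPS libraries. Of 30 tested interferon-stimulated effector genes, 28 rose and 0 fell (median log2 change 2.55), against 13.7% of all genes that rose. The 28 were highest in LPS replicate 4 for 16 genes, in replicate 2 for 9 and in replicate 1 for 3, and 21 of them were lowest in LPS replicate 5. The mean log2 level of the list stood 1.72, 2.81, 2.96 and 0.73 above the saline mean in LPS replicates 1, 2, 4 and 5. Zbp1, a sensor of Z-form nucleic acid, had 21.7, 79.7, 135 and 23.2 CPM in the LPS libraries, against 3.51, 5.60, 2.81 and 1.52 CPM in the saline libraries and rose by 4.29 ± 0.58 (adjusted p = 2.4e-06). Rtp4, a chaperone of receptors, had 32.4, 49.5, 74.2 and 9.52 CPM in the LPS libraries, against 2.57, 1.65, 5.94 and 2.53 CPM in the saline libraries and rose by 3.71 ± 0.47. Oasl2, of the oligoadenylate synthetase-like family, had 28.9, 194, 298 and 36.8 CPM in the LPS libraries, against 3.74, 2.96, 5.63 and 3.79 CPM in the saline libraries and rose by 5.11 ± 0.75. In all 3 the groups did not overlap, and LPS replicates 2 and 4 were highest. Ifit1, which binds foreign RNA, had 32.4, 25.6, 44.8 and 2.22 CPM in the LPS libraries, against 0.701, 1.32, 0.625 and 1.01 CPM in the saline libraries and rose by 4.81 ± 0.74, with LPS replicate 5 near the saline libraries. The antiviral genes Ifitm3 (4.93 ± 0.67), Isg15 (3.78 ± 0.55), Mx1 (3.39 ± 0.62), Rsad2 (4.11 ± 0.83), Oas1a (2.68 ± 0.57), Oasl1 (ratio of counts 186 (95% interval 33.1 to 7401)), Ifit2 (3.38 ± 0.66) and Ifit3 (2.36 ± 0.63) rose, as did the RNA sensors and editors Ifih1 (1.64 ± 0.35), Dhx58 (2.14 ± 0.32), Eif2ak2 (1.16 ± 0.25) and Adar (1.48 ± 0.21). Xaf1 (2.42 ± 0.34), Rnf213 (1.81 ± 0.29) and Parp14 (1.54 ± 0.26) rose too, and Isg20 (0.99) and Mx2 (0.53) were not called. The count of 28 was 16 in the fit without the other arms.

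The interferon-inducible GTPases, which attack the vacuoles of pathogens, rose too. Of 15 tested genes, 11 rose and 0 fell (median log2 change 2.01); 7 rose without LPS replicate 4 and 7 in the fit without the other arms. Gbp2 had 111, 60.0, 86.5 and 32.0 CPM in the LPS libraries, against 3.04, 4.28, 3.75 and 3.54 CPM in the saline libraries and rose by 4.31 ± 0.63. Irgm1, a regulator of the family, had 68.8, 43.8, 142 and 24.1 CPM in the LPS libraries, against 13.3, 13.8, 20.6 and 21.5 CPM in the saline libraries and rose by 2.01 ± 0.37. Neither overlapped between groups, and LPS replicate 5 was the lowest of the LPS libraries in both. Gbp3 (1.32 ± 0.31), Gbp5 (2.98 ± 0.65), Gbp6 (3.04 ± 0.74), Gbp7 (1.68 ± 0.34) and Iigp1 (4.10 ± 0.85) rose, and Gbp8 (0.04) was not called. Upstream, of 21 tested receptors, kinases, STAT factors and SOCS proteins, 8 rose and 1 fell (median log2 change 0.36); the member that fell was not called without any 1 of LPS replicates 1, 2 and 5 and saline replicates 1, 2 and 4. Stat2, a subunit of the factor that binds interferon response elements, had 162, 154, 333 and 74.9 CPM in the LPS libraries, against 22, 28.6, 35.9 and 30.6 CPM in the saline libraries and rose by 2.63 ± 0.31 (adjusted p = 1.51e-07). Usp18, which removes ISG15 and damps the receptor, rose by 3.57 ± 0.57, and Stat3 (1.35 ± 0.23), Socs2 (5.20 ± 1.10), Socs3 (2.35 ± 0.56) and Ptpn1 (0.88 ± 0.21) rose. The receptor gene Ifnar2 (-0.05 ± 0.18, 95% interval -0.41 to 0.32) and the kinase gene Jak1 (0.01 ± 0.18, 95% interval -0.35 to 0.37) were not called. Among 9 tested interferon regulatory factors, 3 rose and 2 fell (median log2 change -0.05, -0.26 without LPS replicate 4 and 0.07 without LPS replicate 2). Irf7, which drives interferon genes, had 12.9, 23.7, 50.1 and 12.1 CPM in the LPS libraries, against 3.51, 2.96, 3.13 and 2.27 CPM in the saline libraries and rose by 3.05 ± 0.43, and Irf9, the partner of STAT2, rose by 1.20 ± 0.18. Irf3 (-0.05) was not called, and of these factors 1 fell without LPS replicate 1 or 2 or without saline replicate 1, 2 or 4.

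Promoter sequences of some of these genes show the letters that the factors above are known to bind. They are from RefSeq on GRCm38.p6 and span 250 bases before to 50 bases after the annotated start, read 5′ to 3′ on the gene's strand. Capitals mark matches on either strand to an interferon response element (GAAA, any 2 bases, GAAA) or to a kappa-B site (GGG, any 3 bases, TTCC), with overlapping matches allowed. The 6 promoters printed were chosen among named genes for the most motif matches, with places kept for interferon and for NF-kB or cytokine list members. That they hold matches was thus fixed by the choice. Gbp2 (chr3:142620413-142620712, plus strand) and Irgm1 (chr11:48871371-48871670, minus strand) are GTPase genes. Cybb (chrX:9469275-9469574, minus strand), described with the oxidases, has several matches to the interferon response element. Cxcl2 (chr5:90903649-90903948, plus strand) and Casp4 (chr9:5308599-5308898, plus strand) stand for genes with several kappa-B matches that rose, and Chuk (chr19:44107428-44107727, minus strand) for a gene with a kappa-B match that was not called.
Gbp2: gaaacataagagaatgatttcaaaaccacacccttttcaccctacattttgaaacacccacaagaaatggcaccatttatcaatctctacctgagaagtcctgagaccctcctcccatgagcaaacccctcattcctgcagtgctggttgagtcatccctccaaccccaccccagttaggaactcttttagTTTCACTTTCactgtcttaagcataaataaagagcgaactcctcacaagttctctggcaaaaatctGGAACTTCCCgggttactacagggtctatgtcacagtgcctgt
Irgm1: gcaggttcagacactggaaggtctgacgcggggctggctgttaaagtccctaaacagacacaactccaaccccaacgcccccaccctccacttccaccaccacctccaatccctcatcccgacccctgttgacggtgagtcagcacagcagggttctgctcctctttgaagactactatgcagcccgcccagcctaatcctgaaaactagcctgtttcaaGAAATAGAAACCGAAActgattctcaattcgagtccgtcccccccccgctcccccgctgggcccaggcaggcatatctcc
Cybb: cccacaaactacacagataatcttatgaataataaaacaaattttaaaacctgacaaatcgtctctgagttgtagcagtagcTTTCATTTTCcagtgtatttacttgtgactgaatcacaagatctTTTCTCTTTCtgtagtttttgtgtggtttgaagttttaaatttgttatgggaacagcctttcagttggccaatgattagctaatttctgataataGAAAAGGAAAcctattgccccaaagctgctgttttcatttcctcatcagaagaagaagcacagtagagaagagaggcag
Cxcl2: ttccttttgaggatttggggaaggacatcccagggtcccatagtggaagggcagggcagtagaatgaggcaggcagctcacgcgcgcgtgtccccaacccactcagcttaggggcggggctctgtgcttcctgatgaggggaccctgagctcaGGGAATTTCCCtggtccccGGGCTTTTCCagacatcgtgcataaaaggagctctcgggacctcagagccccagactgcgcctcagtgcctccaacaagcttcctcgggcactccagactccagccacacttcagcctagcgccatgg
Casp4: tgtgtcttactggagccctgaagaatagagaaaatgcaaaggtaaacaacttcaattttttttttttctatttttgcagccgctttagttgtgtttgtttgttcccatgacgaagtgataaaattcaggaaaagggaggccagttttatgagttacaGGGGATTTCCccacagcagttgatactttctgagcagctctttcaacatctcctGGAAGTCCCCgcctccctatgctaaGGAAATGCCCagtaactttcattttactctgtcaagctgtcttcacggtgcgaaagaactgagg
Chuk: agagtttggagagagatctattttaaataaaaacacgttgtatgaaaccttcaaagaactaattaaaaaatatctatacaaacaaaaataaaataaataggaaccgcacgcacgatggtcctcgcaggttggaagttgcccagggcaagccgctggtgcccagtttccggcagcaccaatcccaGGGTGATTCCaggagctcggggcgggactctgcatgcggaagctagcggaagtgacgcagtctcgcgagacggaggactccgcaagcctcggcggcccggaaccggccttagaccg
Of the 15 GTPase and 30 effector genes, 9 of 10 and 12 of 23 genes with a promoter in the RefSeq table held a match to the interferon response element. Over all tested genes the table held 11752 promoters of 9210 genes, and 3.28% of those promoters held such a match, with 6.27% of 1723 promoters of genes that rose and 2.43% of 1234 promoters of genes that fell. The kappa-B letters stood in 8.36% of promoters of genes that rose, 5.02% of those that fell and 6.35% of all, in 6 of 11 NF-kB list genes, 3 of 6 CXC chemokine genes and 4 of 16 cytokine genes. A glucocorticoid element (ACA, any 3 bases, TGT, with G before and C after at a gap of 1 base on each side) stood in 0.232% of promoters of genes that rose, 0.162% of those that fell and 0.289% of all, and in 3 of 15 glucocorticoid-responsive genes. GAGGAAGT, a PU.1 site, stood in 4.82% of promoters of genes that rose, 4.38% of those that fell and 3.23% of all. The 23 homeostatic genes with a promoter in the table held 0 matches to the interferon response element. A match is a run of letters in this window and not a measured site.

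Genes for peptide display by MHC class I rose moderately. Of 18 tested class I and peptide loading genes, 9 rose and 0 fell (median log2 change 0.77, 0.46 without LPS replicate 2 and 0.81 without LPS replicate 4). Nlrc5, the transactivator of class I genes, had 19.3, 60.0, 124 and 23.8 CPM in the LPS libraries, against 4.21, 3.95, 4.38 and 6.82 CPM in the saline libraries and rose by 3.54 ± 0.47. The peptide transporter gene Tap1 had 61.9, 52.7, 102 and 40.0 CPM in the LPS libraries, against 22.4, 23.7, 20.6 and 25.3 CPM in the saline libraries and rose by 1.48 ± 0.27. Neither overlapped between groups, and LPS replicate 4 was highest. B2m (0.84 ± 0.18), H2-D1 (1.15 ± 0.24), H2-K1 (1.03 ± 0.23), Tapbpl (0.96 ± 0.24) and Erap1 (0.71 ± 0.15) rose, and Tap2 (-0.04) was not called. The class I genes are near-identical copies, among which the authors' counting could split reads. Of 20 tested proteasome genes, 13 rose and 0 fell (median log2 change 0.67), with the activator genes Psme1 (1.25 ± 0.24) and Psme2 (1.12 ± 0.27) and the core gene Psmb3 (1.12 ± 0.25) among them. The interferon-inducible core genes Psmb8 (0.20), Psmb9 (-0.21) and Psmb10 (0.35) were not called. The proteasome count was 6 without saline replicate 3, 7 without LPS replicate 1 or 2 or saline replicate 4, 8 without LPS replicate 5 or saline replicate 1, and 12 of the 13 that rose were lowest in LPS replicate 4. Of 11 tested MHC class II genes, 2 rose and 1 fell (median log2 change -0.27, -0.45 without LPS replicate 2 and 0.00 without LPS replicate 4). These shares, 18.2% and 9.09%, were near those of all genes tested (13.7% and 9.84%). The number that fell was 2 without LPS replicate 2. The invariant chain gene Cd74 had 58.9, 56.0, 20.7 and 62.2 CPM in the LPS libraries, against 19.2, 14.2, 10.6 and 6.82 CPM in the saline libraries and rose by 1.95 ± 0.35, the costimulatory gene Cd86 rose by 1.01 ± 0.21, and H2-Ob, a chain of the DO protein that restrains peptide loading, had 9.37, 8.20, 3.84 and 5.71 CPM in the LPS libraries, against 33.9, 31.0, 27.5 and 28.8 CPM in the saline libraries and fell by 2.15 on the log2 scale. None of these overlapped between groups. H2-Aa (-0.48), H2-Ab1 (0.41) and H2-Eb1 (-0.17) were not called.

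Among receptor genes of phagocytes, some rose and the others were not called. Of 12 tested Fc gamma receptor and adaptor genes, 5 rose and 0 fell (median log2 change 0.48, 0.31 without LPS replicate 2 and 0.71 without LPS replicate 1); 3 rose without LPS replicate 2, and 1 fell without LPS replicate 2 or 5. Beside Fcgr4, Fcgr3 had 544, 673, 606 and 824 CPM in the LPS libraries, against 343, 344, 298 and 330.1 CPM in the saline libraries and rose by 1.01 ± 0.17, and the inhibitory Fcgr2b rose by 0.89 ± 0.22, both without overlap. Ptpn6 (0.02) was not called. Of 14 tested complement genes, 5 rose and 0 fell (median log2 change 0.60); 3 rose without LPS replicate 2 or 5 or saline replicate 3, and 1 fell without LPS replicate 2 or 5. C4b had 20.6, 126, 59.4 and 69.8 CPM in the LPS libraries, against 3.27, 1.98, 4.06 and 1.01 CPM in the saline libraries and rose by 4.73 ± 0.69, and C3 had 27.6, 33.8, 5.37 and 62.5 CPM in the LPS libraries, against 2.57, 0.988, 1.56 and 1.26 CPM in the saline libraries and rose by 4.27 ± 0.54. LPS replicate 1 was lowest of the LPS libraries for C4b and replicate 4 for C3, and neither overlapped with saline. C1qc (-0.01) was not called. Of 16 tested scavenger and C-type lectin receptors, 6 rose and 0 fell (median log2 change 0.56, 0.25 without LPS replicate 2 and 0.69 without LPS replicate 1); 1 fell without LPS replicate 2, and 3 rose in the fit without the other arms. Marco, a scavenger receptor, had 201, 28.1, 28.4 and 76.5 CPM in the LPS libraries, against 0, 0, 0 and 0 CPM in the saline libraries, at least 392-fold higher. Clec4a1 rose by 4.76 ± 1.01, Clec4d was at least 11.9-fold higher and Clec4e, a receptor of mycobacterial glycolipid, at least 32.0-fold higher. Clec4a2 (-0.00) and Mrc1, the mannose receptor gene of border macrophages (-0.36), were not called, but without LPS replicate 2 Mrc1 was (-1.88, adjusted p = 0.0415).

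In the families with paired activating and inhibiting members, more genes rose than fell. Of 18 tested TREM, CD300, SIGLEC and PIR genes, 11 rose and 4 fell (median log2 change 1.79). Treml2 had 41.8, 68.9, 58.3 and 42.5 CPM in the LPS libraries, against 9.82, 9.55, 7.50 and 12.4 CPM in the saline libraries and rose by 2.42 ± 0.23 (adjusted p = 8.76e-10). Lilrb4a, an inhibitory receptor, had 513, 255, 303 and 605 CPM in the LPS libraries, against 45.8, 46.4, 52.2 and 39.1 CPM in the saline libraries and rose by 3.19 ± 0.32. Trem1, which amplifies myeloid activation, had 27.8, 12.9, 24.6 and 63.8 CPM in the LPS libraries, against 0, 0, 0 and 0 CPM in the saline libraries, at least 146-fold higher. The groups did not overlap in any of them. Pirb (2.07 ± 0.41), Pilra (2.63 ± 0.51), Pilrb1 (ratio of counts 102 (95% interval 28.0 to 851)), Siglece (0.95 ± 0.24) and Siglec1, also a marker of border macrophages (5.43 ± 0.70), rose, and Trem3 was at least 7.37-fold higher. Trem2, a lipid receptor of microglia, had 72.3, 132, 96.0 and 96.4 CPM in the LPS libraries, against 303, 314, 229 and 241 CPM in the saline libraries and fell by 1.45 on the log2 scale. Sirpa, the receptor of the CD47 signal, had 280.3, 741, 640.2 and 752 CPM in the LPS libraries, against 1469, 1567, 1623 and 1647 CPM in the saline libraries and fell by 1.39, and Cd300a fell by 1.19. LPS replicate 1 was lowest for Trem2 and Sirpa, and no LPS library reached the saline range. Cd33 (0.38) was not called. Of 13 tested genes of TAM receptors and the uptake of dying cells, 2 rose and 1 fell (median log2 change -0.37, -0.60 without LPS replicate 5 and -0.16 without LPS replicate 1), again near 13.7% and 9.84% of all genes tested; 5 fell without LPS replicate 2 and 3 without LPS replicate 5. Axl rose (1.66 ± 0.34), as did Cd47 (1.0 ± 0.27), Elmo1, an activator of RAC in engulfment, had 259, 254, 255 and 312 CPM in the LPS libraries, against 601, 678, 629.7 and 618 CPM in the saline libraries and fell by 1.22, and Itgb3 (-0.02) was not called. Of 25 tested genes of disease-associated microglia, 10 rose and 4 fell (median log2 change 0.68, 0.43 without LPS replicate 5 and 0.86 without LPS replicate 1). Spp1, osteopontin, had 96.7, 25.8, 40.2 and 105 CPM in the LPS libraries, against 0.234, 0.329, 0.313 and 0.253 CPM in the saline libraries and rose by 7.73 ± 0.91, Cd63 had 297, 253, 328 and 384 CPM in the LPS libraries, against 59.6, 70.8, 54.7 and 59.3 CPM in the saline libraries and rose by 2.37 ± 0.26, and Cst7 rose by 2.03 ± 0.49. Cd9 (-0.75 ± 0.21) fell with Ctsd and Trem2, and Lpl (0.01) was not called.

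More genes of inflammasomes and of cell death rose than fell. The shares that rose were 30.8% and 43.5%, against 13.7% of all genes tested. The shares that fell, 15.4% and 8.70%, rested on 2 genes in each list, against 9.84% of all genes tested. Of 13 tested inflammasome and pyroptosis genes, 4 rose and 2 fell (median log2 change -0.05, -0.15 without LPS replicate 2 and 0.17 without LPS replicate 1). Casp4, which encodes the caspase-11 sensor of intracellular LPS, had 128, 134, 45.3 and 139 CPM in the LPS libraries, against 40.2, 31.3, 28.1 and 28.5 CPM in the saline libraries and rose by 1.80 ± 0.37 without overlap, and Nlrp3 (1.92 ± 0.42) and Casp1 (0.76 ± 0.17) rose. Nlrp1b had 13.9, 45.7, 22.5 and 34.9 CPM in the LPS libraries, against 75.0, 51.0, 93.8 and 84.8 CPM in the saline libraries and fell by 1.38, and Casp8 changed by -0.74 ± 0.20. Gsdmd (-0.05) was not called. Of 23 tested genes of the BCL2 family and apoptosis, 10 rose and 2 fell (median log2 change 0.32); 1 fell without LPS replicate 1, 2 or 5 or saline replicate 2, 3 or 4. The survival genes Bcl2l1 (1.21 ± 0.20), Bcl2a1a (2.96 ± 0.46), Mcl1 (0.94 ± 0.23) and Birc3 (1.49 ± 0.31) rose, as did the death effector gene Bak1 (1.14 ± 0.25). Pmaip1 (0.03) was not called, and the Bcl2a1 genes are near-identical copies.

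The metabolic lists differed in the share of members that rose. It was 33.3% in the glycolytic list and 14.3% in the respiratory chain list, against 13.7% of all genes tested. In the list of arginine, itaconate, tryptophan and nitric oxide enzymes it was 58.3%. Of 21 tested glycolytic genes, 7 rose and 3 fell (median log2 change 0.32, 0.05 without LPS replicate 5 and 0.55 without LPS replicate 4). Pfkfb3, which makes the activator of phosphofructokinase, had 2489.8, 627, 675 and 1126 CPM in the LPS libraries, against 128, 124, 95.3 and 111 CPM in the saline libraries and rose by 3.42 ± 0.56 without overlap, Gpi1 rose by 1.17 ± 0.21 and Pkm by 0.95 ± 0.24, while Pdk1, a kinase that shuts pyruvate dehydrogenase, fell by 1.56. Pfkl (-0.03) was not called. The glycolytic counts were 3 without LPS replicate 5, 4 without LPS replicate 2 or saline replicate 3 or 4 for genes that rose and 1 without LPS replicate 1 for genes that fell. Of 28 tested nuclear genes of the respiratory chain, 4 rose and 0 fell (median log2 change 0.46), a share near the 13.7% of all genes tested that rose; the number that rose was 1 without LPS replicate 5, 2 without saline replicate 4, 12 without LPS replicate 4. Atp5b had 335, 415, 204 and 376 CPM in the LPS libraries, against 173, 162, 128 and 170.2 CPM in the saline libraries and rose by 1.07 ± 0.19, and Atp5a1 (0.57 ± 0.19), whose call was lost in 3 fits without 1 library, was the next, while Ndufb3 (-0.02) was not called. Of 12 tested enzymes of arginine, itaconate, tryptophan and nitric oxide metabolism, 7 rose and 0 fell (median log2 change 1.5). Acod1, which makes itaconate, had 142, 27.9, 12 and 16.5 CPM in the LPS libraries, against 0, 0, 0 and 0 CPM in the saline libraries, at least 239-fold higher and mostly in LPS replicate 1. Sod2, the mitochondrial superoxide dismutase, had 791, 186, 67.0 and 241 CPM in the LPS libraries, against 36.7, 32.9, 33.8 and 34.1 CPM in the saline libraries and rose by 3.22 ± 0.75. Gch1, which makes tetrahydrobiopterin (2.40 ± 0.49), Nampt, of NAD synthesis (1.29 ± 0.27), Odc1, of polyamine synthesis (2.09 ± 0.43), and Arg1 (1.70 ± 0.48) rose, Tdo2 (0.17) was not called, and Nos2 was not tested.

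Of 25 tested genes of cholesterol synthesis, uptake and efflux, 9 rose and 0 fell (median log2 change 0.56). Soat1, which esterifies cholesterol, had 120.5, 169.9, 191 and 282 CPM in the LPS libraries, against 86.0, 98.5, 107 and 97.2 CPM in the saline libraries and rose by 0.98 ± 0.25, without overlap. The synthesis genes Sqle (1.35 ± 0.37) and Mvk (1.58 ± 0.45) rose and Acat2 (0.03) was not called. Of 15 tested eicosanoid enzymes, 4 rose and 3 fell (median log2 change 0.44, -0.07 without LPS replicate 2 and 0.54 without LPS replicate 4); 2 rose without any 1 of the 4 saline libraries. Ptgs2, the inducible cyclooxygenase, had 34.3, 213, 0 and 548 CPM in the LPS libraries, against 5.14, 4.94, 1.88 and 4.04 CPM in the saline libraries and rose by 5.61 ± 1.42. It had 0 counts in LPS replicate 4 and stood above all saline libraries in the other LPS libraries. Pla2g7, which degrades platelet-activating factor, rose by 3.59 ± 0.92, the prostaglandin dehydrogenase gene Hpgd fell by 2.23 and Pla2g4a (0.01) was not called. Of 25 tested ion channels and solute transporters, 9 rose and 2 fell (median log2 change 0.38). The glucose transporter genes Slc2a6 (4.92 ± 0.64), Slc2a3 (2.55 ± 0.39) and Slc2a1 (0.77 ± 0.22) rose while the fructose transporter gene Slc2a5 fell, and Clic4 (3.02 ± 0.45), Lrrc8a (1.30 ± 0.19), Kcna3 (4.42 ± 0.88) and Slc7a5 (1.57 ± 0.40) rose. Trpm2 (-0.01) was not called.

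Among genes of iron and metal handling, more rose than fell. Of 18 tested genes, 10 rose and 2 fell (median log2 change 1.22); 1 fell without LPS replicate 1, 2 or 5 or saline replicate 4. Slc39a14, an importer of zinc and iron, had 306, 194, 129 and 187 CPM in the LPS libraries, against 18.7, 15.8, 16.9 and 17.9 CPM in the saline libraries and rose by 3.55 ± 0.48. Lcn2, which binds bacterial siderophores, had 146, 15, 29.4 and 170.0 CPM in the LPS libraries, against 0, 0.659, 0 and 0.758 CPM in the saline libraries and rose by 7.87 ± 1.38. Mt2, a metallothionein, had 236, 5.39, 21.5 and 46.0 CPM in the LPS libraries, against 0.701, 0.329, 0.313 and 0.253 CPM in the saline libraries and rose by 7.42 ± 1.85. The groups did not overlap in these genes, and LPS replicate 1 was highest for Slc39a14 and Mt2. Mt1 (2.85 ± 0.62), Cp (2.55 ± 0.67), Hmox1 (1.38 ± 0.39) and Slc39a1 (0.99 ± 0.20) rose, and Ncoa4, which carries ferritin to the lysosome, had 88.6, 129, 80.3 and 105 CPM in the LPS libraries, against 210.4, 193, 182 and 213 CPM in the saline libraries and fell by 0.99. Ireb2 (0.08) was not called. Of 21 tested genes of the NADPH oxidase and oxidant defence, 9 rose and 0 fell (median log2 change 0.63, 0.36 without LPS replicate 5 and 0.79 without LPS replicate 4); 1 fell without LPS replicate 2 or 5. Cybb, the catalytic subunit, whose promoter is printed above, had 117, 182, 30.4 and 114 CPM in the LPS libraries, against 2.57, 5.93, 3.44 and 3.28 CPM in the saline libraries and rose by 4.88 ± 0.56 (adjusted p = 1.22e-07) without overlap. Txnrd1 (1.94 ± 0.36), Ncf1 (1.03 ± 0.26), Prdx5 (1.32 ± 0.29) and Prdx6 (1.56 ± 0.37) rose, and Gpx4 (0.07) was not called.

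Genes known to be induced by glucocorticoids rose. Of 18 tested genes, 13 rose and 0 fell (median log2 change 2.25). Fkbp5, a co-chaperone of the glucocorticoid receptor, had 212, 144, 377 and 283 CPM in the LPS libraries, against 24.3, 23.4, 69.4 and 51.0 CPM in the saline libraries and rose by 2.60 ± 0.38 (adjusted p = 4.89e-06). Klf9 had 68.5, 10.1, 77.0 and 27.6 CPM in the LPS libraries, against 1.64, 1.65, 4.69 and 1.77 CPM in the saline libraries and rose by 4.24 ± 0.71. Zbtb16 had 203, 2.58, 142 and 26.6 CPM in the LPS libraries, against 0.234, 0.329, 0 and 0 CPM in the saline libraries, a ratio of counts of 676 (95% interval 187 to 5588). The groups did not overlap, and for Klf9 and Zbtb16 LPS replicates 1 and 4 were highest and replicate 2 lowest. Tsc22d3, which encodes GILZ (1.25 ± 0.36), Map3k6 (6.39 ± 0.99), Sult1a1 (1.76 ± 0.46) and the cell cycle inhibitor gene Cdkn1a (2.84 ± 0.51) rose, and the receptor gene Nr3c1 (-0.24) and Sgk3 (0.17) were not called. The mean log2 level of the list stood 2.59, 1.68, 2.42 and 2.61 above the saline mean in LPS replicates 1, 2, 4 and 5. Several of these genes, such as Il1r2, Mt1, Mt2 and Dusp1, are also induced by other signals. Of 17 tested clock genes, 4 rose and 2 fell (median log2 change 0.22, 0.09 without LPS replicate 4 and 0.30 without LPS replicate 2); the number that rose was 1 without LPS replicate 1, 2 without saline replicate 1 or 3, and the number that fell was 1 without LPS replicate 2 or 5 or saline replicate 1, 2 or 4. Nfil3 (2.96 ± 0.41) rose and Hlf (-1.92 ± 0.50) fell, and Ciart (0.52) was not called.

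Immediate early genes, which cell dissociation can induce, followed the individual libraries. Of 22 tested genes, 4 rose and 0 fell (median log2 change 0.45, -0.05 without LPS replicate 5 and 0.83 without LPS replicate 4). That is 18.2% that rose, against 13.7% of all genes tested. The number that rose was 2 without LPS replicate 5 or saline replicate 3. The mean log2 level of the list stood at -0.36, 1.04, -2.28 and 1.62 relative to the saline mean in LPS replicates 1, 2, 4 and 5, which is the same order of libraries as in the cytokine ligand list. The CC chemokine list stood at 2.45, 2.88, 0.13 and 2.79 and the CXC list at 2.17, 3.28, 0.73 and 3.15. The part of dissociation in the cytokine results was not tested. Klf6 (1.12 ± 0.25) and Dusp1 rose with no overlap, while Fos (1.15), Jun (-0.40) and Egr1 (0.20) were not called. Of 18 tested genes of the unfolded protein response, 3 rose and 0 fell (median log2 change 0.34, 0.09 without LPS replicate 2 and 0.56 without LPS replicate 4). The share that rose, 16.7%, was near the 13.7% of all genes tested. The number that rose was 1 without LPS replicate 2 or 5 or saline replicate 2, 3 or 4. Atf6, a sensor of the endoplasmic reticulum, had 582, 208, 319.8 and 269 CPM in the LPS libraries, against 158, 128, 135 and 146 CPM in the saline libraries and rose by 1.28 ± 0.29, and Herpud1 (0.97 ± 0.32), whose call was lost in 6 of the 8 fits without 1 library, and Hspa5 were the others. Eif2ak3 (0.07) was not called.

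**Figure D4:**
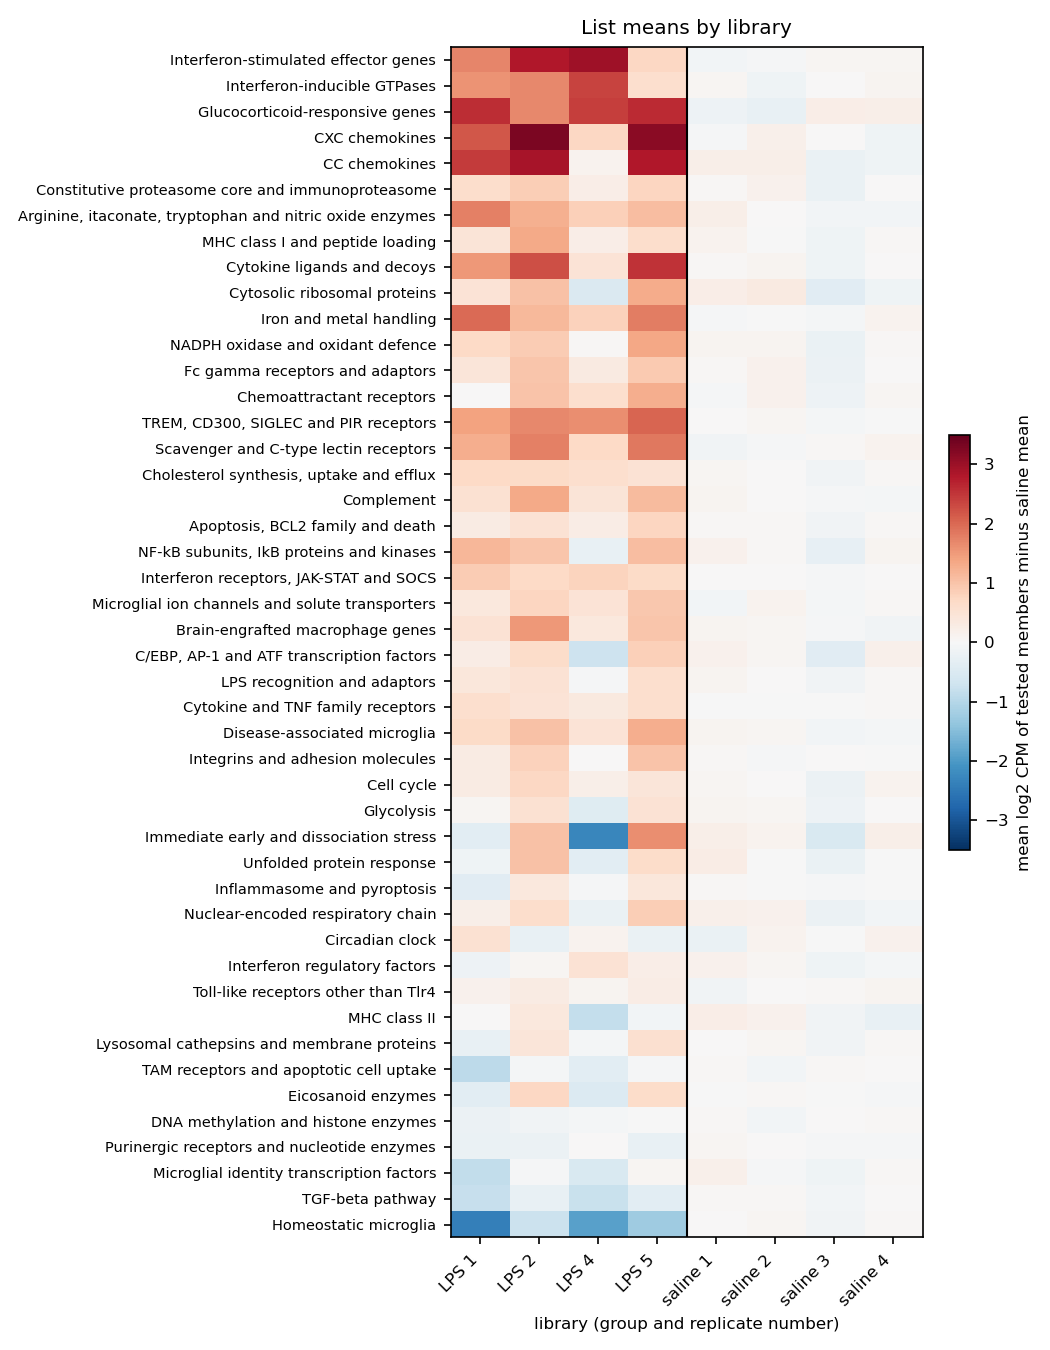
Mean log2 CPM of the tested members of each gene list in each of the 8 libraries (LPS libraries left, saline libraries right), minus the mean of the saline libraries, as colour. LPS replicates 2 and 4 are highest for interferon-stimulated effector genes (2.81 and 2.96), LPS replicate 4 is lowest for CC chemokines (0.13) and immediate early genes (-2.28), and all 4 LPS libraries are low for homeostatic genes (-0.76 to -2.39).

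Cytosolic ribosomal protein genes rose by call count but overlapped between groups. Of 35 tested, 16 rose and 0 fell (median log2 change 0.66, 0.42 without LPS replicate 5 and 0.86 without LPS replicate 4). None, 0 of the 35, was free of overlap, against 24.6% of all genes tested. The number that rose was 5 without LPS replicate 5, 6 without saline replicate 3, 8 without LPS replicate 2 or saline replicate 4, 26 without LPS replicate 4. Rpsa had 176, 295, 80.1 and 359 CPM in the LPS libraries, against 119, 98.1, 50 and 70.0 CPM in the saline libraries, a change of 1.43 ± 0.33. LPS replicate 4 lay within the saline range and LPS replicate 5 was highest. All 16 genes that rose were highest in LPS replicate 5 and lowest in LPS replicate 4, the library with the lowest share of mitochondrial ribosomal RNA. The part of that share in these values was not tested. Rpl30 (0.26) was not called.

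Remaining lists changed at single members. Of 15 tested cell cycle genes, 3 rose and 0 fell (median log2 change 0.19, -0.04 without LPS replicate 2 and 0.30 without saline replicate 1), namely Ccnd2 (4.12 ± 0.70), Mcm6 (1.25 ± 0.32) and Cdkn1a; 1 fell without LPS replicate 5, and the proliferation gene Mki67 (-0.80) and Ccnd1 (0.17) were not called. Of 21 tested integrins and adhesion molecules, 7 rose and 2 fell (median log2 change 0.00, -0.08 without LPS replicate 5 and 0.24 without LPS replicate 2); 1 fell without LPS replicate 1 and 4 without LPS replicate 2 or 5. Cd44, the hyaluronan receptor, had 42.6, 22.3, 18.2 and 80.3 CPM in the LPS libraries, against 0.935, 1.98, 3.13 and 0.505 CPM in the saline libraries and rose by 4.67 ± 0.64, Itgal rose by 4.79 ± 0.65, Itga5 by 2.37 ± 0.34 and Vcam1 by 2.84 ± 0.47, and Jaml was at least 18.9-fold higher. Itgb1 (-0.00) was not called. Of 25 tested lysosomal genes, 6 rose and 4 fell (median log2 change 0.12, 0.04 without LPS replicate 2 and 0.19 without LPS replicate 4), with Ctsc (1.68 ± 0.43) higher beside Ctsl and Cd63, and Hexa (-1.26 ± 0.26) lower beside Ctsd. Of 21 tested enzymes of DNA methylation and histones, 3 rose and 3 fell (median log2 change -0.09, -0.13 without LPS replicate 5 and -0.02 without LPS replicate 4), shares near those of all genes tested (13.7% and 9.84%). Tet1, a DNA demethylase, had 5.62, 3.98, 3.84 and 4.44 CPM in the LPS libraries, against 32.0, 33.3, 36.9 and 33.3 CPM in the saline libraries and fell by 2.91 (adjusted p = 6.28e-07), Dnmt3a (-0.97 ± 0.25) fell, and Hdac4 (1.72 ± 0.34) and Setdb2 (1.65 ± 0.36) rose. Kdm6a (-0.01) was not called.

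Some list members were not called with narrow intervals. Of 812 tested list members, 22 were not called and had a 95% interval of the log2 change within -0.5 to 0.5. The 12 with the narrowest intervals included Ctsa (-0.42 to 0.27) and Lamp2 (-0.20 to 0.44) of the lysosome, Ndufs1 (-0.20 to 0.43) of the respiratory chain, Smad2 (-0.38 to 0.18), and the chromatin genes Crebbp (-0.32 to 0.23), Ep300 (-0.44 to 0.20), Suz12 (-0.46 to 0.24) and Hdac1 (-0.45 to 0.28), beside Chuk, Jak1 and Ifnar2.

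**Figure D5:**
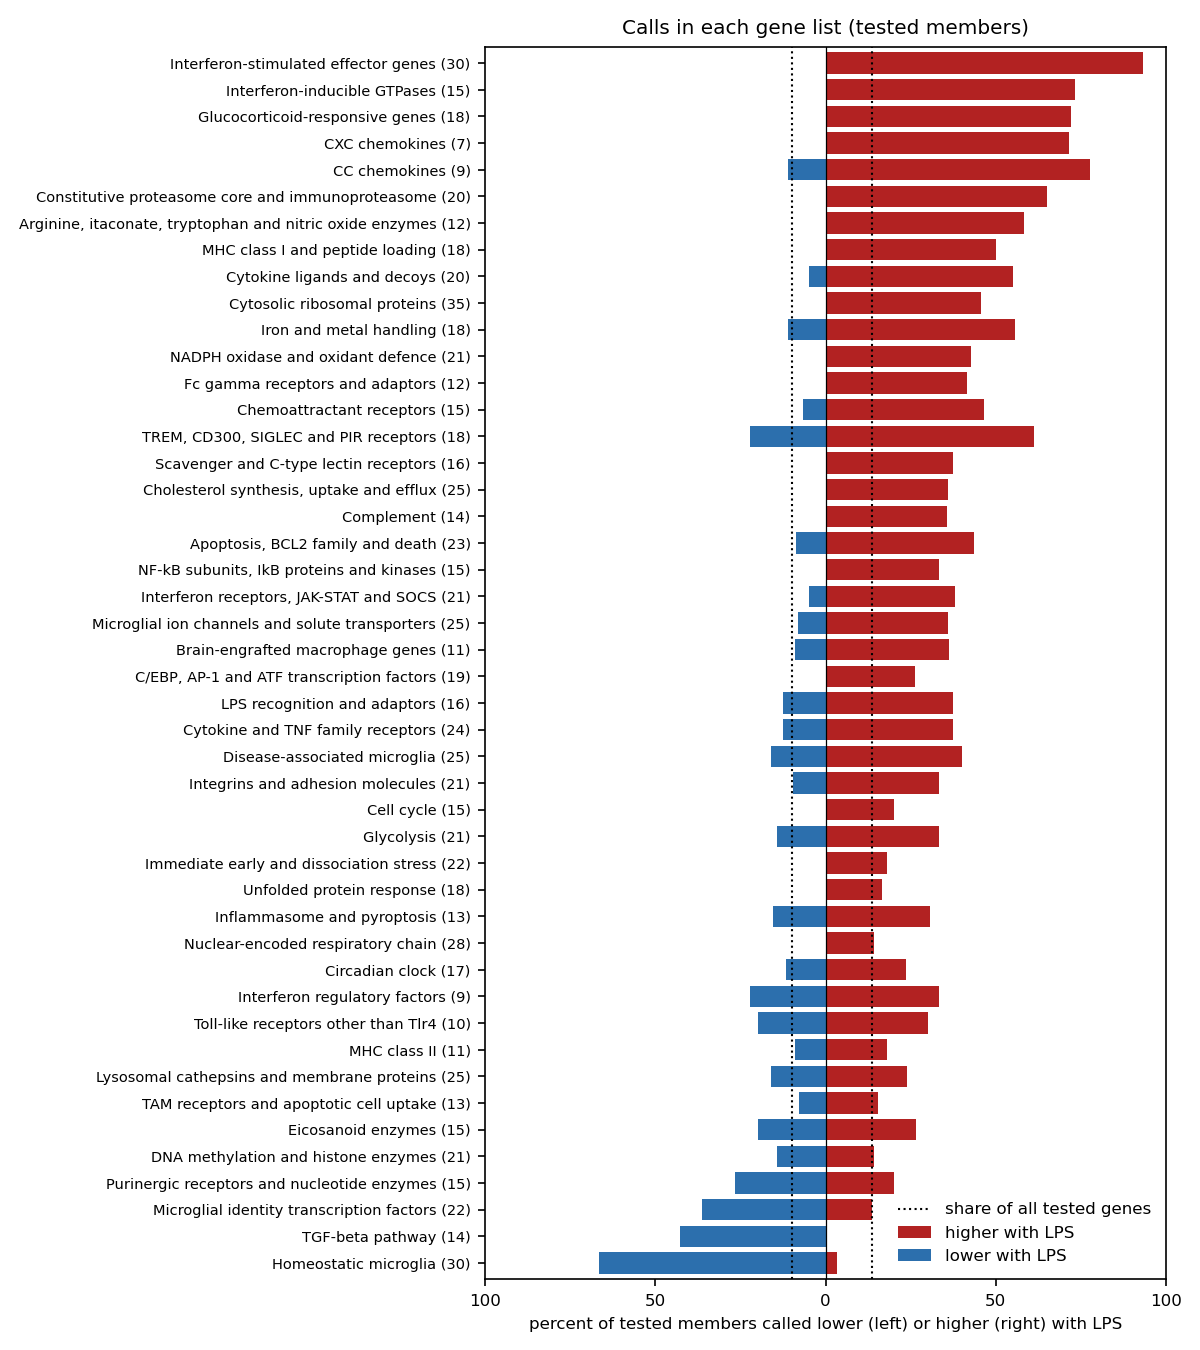
Percent of the tested members of each gene list that rose (one side) and fell (other side) after LPS, with dotted lines at the share of all genes tested that rose (13.7%) and fell (9.84%). Interferon-stimulated effector genes have the most members that rose (28 of 30) and homeostatic microglial genes the most that fell (20 of 30).

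Markers of other myeloid cells were measured beside these groups. Of 8 tested markers of border-associated macrophages, 2 rose and 0 fell (median log2 change 1.31, -0.61 without LPS replicate 2 and 1.81 without saline replicate 3), Siglec1 and F13a1 (2.80 ± 0.86), whose call was lost without 1 library in 2 of 8 fits (1.84 without LPS replicate 2), and 1 rose without LPS replicate 2 or saline replicate 1. Their summed level was 167 to 804 CPM after LPS and 290 to 404 CPM after saline. Of 7 tested monocyte markers, 4 rose and 0 fell (median log2 change 4.25); 2 rose without LPS replicate 5 or saline replicate 1, 2 or 3. Fn1 had 14.2, 116, 38.4 and 136 CPM in the LPS libraries, against 1.17, 0.659, 0.625 and 1.77 CPM in the saline libraries and rose by 6.07 ± 0.98, and Plac8 had a ratio of counts of 15.4 (95% interval 3.92 to 132), its fitted log2 change being 3.65, and 5.85 without saline replicate 4. The defining marker Ccr2 (-0.83) was not called, and Ly6c2 had too few counts to be tested. Of 7 tested neutrophil markers, 3 rose and 0 fell (median log2 change 5.20); the number was 1 without LPS replicate 5 or saline replicate 1, 2, 3 or 4, 5 without LPS replicate 4. S100a8 was at 1.02 to 12.4 CPM after LPS and 0 to 0.329 CPM after saline, and its call was lost in 5 of the 8 fits without 1 library. The neutrophil markers together stood at 53.6 to 375 CPM after LPS and 340 to 384 CPM after saline, and Ly6g was not tested. Of the 10 listed, 4 were at 0 in every saline library. The tested members had a mean log2 level of only 0.57 to 1.02 in the saline libraries, so that sum came from few members. Of the neuronal, astrocyte, oligodendrocyte and erythroid markers tested, 0 rose and 0 fell, and Pecam1 (-1.37 ± 0.35) was the endothelial marker that fell. Meg3 (-1.84), Gja1 (-0.40), Mag (-0.58) and Flt1 (-0.54) were not called; without LPS replicate 1 or saline replicate 3, 1 neuronal marker fell, and without LPS replicate 1, 1 oligodendrocyte marker. Of 11 tested genes of brain-engrafted macrophages, 4 rose and 1 fell (median log2 change 0.43, 0.38 without saline replicate 1 and 0.76 without LPS replicate 1), with Cd38 (3.56 ± 0.84) higher beside Cybb, Cd74 and Axl and with Pmepa1 (-1.68 ± 0.36) lower.

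The response was set against that of 2 other arms, which share no libraries with it. These were prenatal MIA without PLX (6 MIA_CON_LPS and 4 MIA_CON_SAL libraries) and control prenatal history with PLX (6 CON_PLX_LPS and 4 CON_PLX_SAL libraries). For 0 of 13417 genes (0.0%) did the LPS response differ from that in MIA_CON by edgeR, DESeq2 or voom at an adjusted p under 0.05, and 416, 494 and 460 genes had an unadjusted p under 0.05. Against CON_PLX the count was also 0 by edgeR, DESeq2 and voom, with 354, 410 and 722 genes at an unadjusted p under 0.05. With no true difference, a share of about 0.05 of the 13417 genes would pass that unadjusted limit, so these counts are not read as differences. P2ry12 changed by -3.08 in CON_CON, -2.19 in MIA_CON and -3.25 in CON_PLX, and the 95% interval of the difference was -1.86 to 0.09 against MIA_CON and -0.79 to 1.15 against CON_PLX. Ifi207 changed by 6.51, 6.02 and 6.14, with intervals of the difference of -0.56 to 1.53 and -0.62 to 1.36. Tnf changed by 3.70, 2.95 and 3.31, and its intervals were wide, at -1.28 to 2.78 and -1.64 to 2.43. MIA_CON_LPS replicate 6 differed little from a saline library of the MIA arm with PLX that is marked for exclusion. Their chi-square per degree of freedom was 1.53 over 11606 genes. That LPS library was at 8.94 to the nearest MIA_CON_SAL library and at 14.9 to the nearest library of its own group. The MIA_CON changes above include this LPS library. Without it 0 genes differed from MIA_CON and 500 had an unadjusted p under 0.05.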

How the data were processed

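The authors deposited 1 table of estimated counts per gene and library. STAR, RSEM and DESeq2 are named per the submitters' processing notes, without versions or roles, and the genome build is not given in the sources used here. Of the nonzero values 14.71% were not whole, and all were rounded to whole numbers before fitting. Per the labels' protocols, RNA was amplified with a kit that keeps no strand information, so reads of overlapping and antisense genes cannot be told apart. Symbols were matched to 55141 of 55487 identifiers.

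The low-count filter was filterByExpr (a minimum count of 10 and a minimum total of 15), run with edgeR 4.0.16 in R 4.3.3, and a model with 1 mean per group was fitted to 37 libraries, which share the estimate of spread (common dispersion 0.0972), by quasi-likelihood with TMM factors and robust dispersion. LPS was tested against saline in CON_CON, and the difference of that effect from the effects in MIA_CON and CON_PLX was tested, two-sided, with Benjamini-Hochberg adjustment over 13417 genes. The SE follows from the log2 change and its F statistic, as change over root F. CPM uses the TMM-normalised library size. Folds against 0 use 3 counts over the group as a floor, and ratios against 1 to 3 counts carry 95% intervals. Intervals and floors cover counting error only. The fit was also run on simulated counts with the same spread in every group. That run therefore cannot speak to the unequal spread of the LPS and saline libraries.

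The 46 gene lists and 10 marker lists, the rule for named genes and the members were chosen with earlier results of these data known. The rule named the 12 genes called higher and the 12 called lower with the smallest p, no overlap and a mean of at least 50 CPM in the higher group, the 8 per direction with the largest difference in mean CPM, the 2 members with the smallest p and the 1 with the largest in each list, up to 12 stable members, and P2ry12, Itgam, Ptprc, Tlr4, Tnf and Il1b. Predicted genes without a name were skipped. Other genes are examples chosen after their values were seen. Some genes are not reported here. List medians are over members that passed the count filter.

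Alternatives were RLE size factors, library totals alone, DESeq2 1.42.0, voom with quality weights (limma 3.58.1), a fit of the compared arms alone, no filter, a minimum count of 50, removal of mitochondrial ribosomal RNA, inclusion of both libraries marked for exclusion, a fit without MIA_CON_LPS replicate 6, a replicate block, and each of the 8 libraries left out. The authors' replicate numbers, per the labels, are not said to pair libraries.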

Additional observations from a re-analysis of the deposited data

Results flagged for a closer look

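In the genes named above, 1 library of a group of 4 sometimes stood far from the other 3 (its gap to the nearest of them, relative to the group's whole range on the log2(CPM + 1) scale, was above Dixon's 95% critical value). Chance alone gives such a library in about 1 in 20 groups, and the values follow as measured. LPS replicate 1 lay below the other 3 LPS libraries in Cdh23 (5.35 CPM, others 13.6 to 14.8), Gsdmd (32.1 CPM, others 72.2 to 75.7), Pdk1 (15.8 CPM, others 35.2 to 40.7) and Sirpa (280.0 CPM, others 640.0 to 752). LPS replicate 2 lay below the other 3 LPS libraries in Lrrc8a (141 CPM, others 173 to 177) and Map3k6 (7.27 CPM, others 42.8 to 53.0). LPS replicate 4 lay below the other 3 LPS libraries in Tnfaip3 (152 CPM, others 2161 to 3201), Nfkbib (8.96 CPM, others 37.8 to 44.1), Jak1 (178 CPM, others 258 to 270.0), Casp4 (45.3 CPM, others 128 to 139), Cd74 (20.7 CPM, others 56.0 to 62.2) and Herpud1 (49.6 CPM, others 155 to 165). The same library was apart in Ccl3 (17.4 CPM, others 618 to 959), Ecscr (14.6 CPM, others 27.2 to 29.5), Odc1 (22.3 CPM, others 85.9 to 104), Prdx5 (28.1 CPM, others 64.7 to 69.2) and Vcam1 (18.7 CPM, others 85.9 to 105). In LPS replicate 1 the value was above the other 3 for Crebbp (382 CPM, others 285 to 293), Csf2rb2 (290.0 CPM, others 204 to 214), Fas (11.5 CPM, others 0.952 to 1.54) and Fpr1 (39.6 CPM, others 5.08 to 6.8). In LPS replicate 2 the value was above the other 3 for Ttc3 (50.4 CPM, others 32.0 to 33.2), Pfkl (67.3 CPM, others 36.8 to 38.4) and Mcm6 (28.1 CPM, others 13.9 to 14.6). In LPS replicate 5 the value was above the other 3 for Elmo1 (312 CPM, others 254 to 259), Gpi1 (182 CPM, others 109 to 114), Gpx4 (16.5 CPM, others 8.3 to 9.21), Hbb-bt (0.317 CPM, others at 0) and Siglece (162 CPM, others 88.1 to 97.3). Low values set saline replicate 2 apart in Macf1 (3356 CPM, others 3975 to 4063). Low values set saline replicate 3 apart in Srgn (28.8 CPM, others 35.1 to 36.2), Fosb (65.0 CPM, others 127 to 145), Gpx4 (5.31 CPM, others 11.1 to 12.2), Gbp5 (13.1 CPM, others 23.7 to 26.4), Jun (381 CPM, others 782 to 901) and Socs3 (58.1 CPM, others 101 to 112). Low values set saline replicate 4 apart in Mx1 (0.758 CPM, others 3.27 to 3.75) and Smad3 (88.9 CPM, others 101 to 103). High values set saline replicate 1 apart in Gpi1 (75.0 CPM, others 50.6 to 53.7) and Tal1 (81.8 CPM, others 43.1 to 47.7). High values set saline replicate 2 apart in S100a8 (0.329 CPM, others at 0), Hbb-bs (15.5 CPM, others 0 to 0.253), Hbb-bt (3.95 CPM, others at 0) and Oasl1 (0.329 CPM, others at 0). High values set saline replicate 3 apart in Trpm2 (101 CPM, others 78.1 to 78.8) and Klf9 (4.69 CPM, others 1.64 to 1.77). High values set saline replicate 4 apart in Lims1 (274 CPM, others 212 to 221), Plac8 (0.505 CPM, others at 0), Gfap (0.253 CPM, others at 0) and Klf4 (80.6 CPM, others 36.6 to 41.1).

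The CON_CON_LPS library whose title marks it for exclusion (replicate 3) entered no comparison here, and some genes that rose were above every saline library in it. For the values below, normalisation factors were computed with that library included, so CPM differ slightly from those above. Ifi207 was at 11.5 CPM there, against 133 to 387 CPM in the 4 LPS libraries used and 1.31 to 4.36 CPM in saline libraries. Msr1 was at 7.75 CPM there, against 438 to 969 CPM in the 4 LPS libraries used and 2.33 to 5.78 CPM in saline libraries. Fcgr4 was at 12.4 CPM there, against 98.5 to 141 CPM in the 4 LPS libraries used and 2.18 to 7.22 CPM in saline libraries. Fkbp5 was at 226 CPM there, against 143 to 376 CPM in the 4 LPS libraries used and 23.3 to 69.1 CPM in saline libraries. Klf9 was at 9.93 CPM there, against 10.0 to 76.6 CPM in the 4 LPS libraries used and 1.63 to 4.67 CPM in saline libraries. Zbtb16 was at 2.17 CPM there, against 2.57 to 202 CPM in the 4 LPS libraries used and 0 to 0.328 CPM in saline libraries. Tsc22d3 was at 188 CPM there, against 83.5 to 218 CPM in the 4 LPS libraries used and 46.1 to 110.3 CPM in saline libraries. Cdkn1a was at 127 CPM there, against 394 to 1109 CPM in the 4 LPS libraries used and 69.1 to 120.2 CPM in saline libraries. Saa3 was at 28.8 CPM there, against 55.5 to 513 CPM in the 4 LPS libraries used and 0 CPM in all saline libraries. These genes were chosen after their values were seen. P2ry12, the ADP receptor gene, was at 2239 CPM in that library, against 175 to 378 CPM in the 4 LPS libraries used and 2063 to 2630.0 CPM in saline libraries. Of the 13 glucocorticoid target genes, 12 were above every saline library in it and 8 lay within or above the range of the LPS libraries used. Il1r2, of that list, was at 0 CPM there, against 36 to 294 CPM in the 4 LPS libraries used and 0 to 0.311 CPM in saline libraries. Of the 28 interferon-stimulated effector genes that rose, 14 were above every saline library in it and 12 lay within or above the LPS range. Of the 20 homeostatic genes that fell, 2 were below every saline library and 0 lay within or below the LPS range.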

How the results depend on the processing

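Against 1840 genes higher and 1320 lower, a fit of only the compared arms called 1205 higher and 1118 lower, and including both libraries marked for exclusion gave 1385 higher and 747 lower. These settings hold fewer or added libraries by construction, and beyond that the cause was not tested. Library totals alone gave 1391 higher and 1444 lower, with the median log2 change of all genes at -0.04 in place of 0.06. In the other settings that kept all 37 libraries, RLE size factors, removed mitochondrial rRNA, DESeq2, voom, no filter and a minimum count of 50, the counts were between 1488 and 1908 higher and between 1025 and 1695 lower. A fit without MIA_CON_LPS replicate 6 called 1875 higher and 1379 lower. Leaving out each compared library in turn gave 1462 to 1889 genes higher and 991 to 1336 lower. Both tests of a difference between LPS effects called 0 genes under every setting run.

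Same-numbered LPS and saline replicates 1, 2 and 4 had deviations correlated at -0.051, 0.0251 and -0.00206 across genes, so the numbers were not taken to pair the libraries. With a replicate block, 1743 genes were called higher and 1356 lower.

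For the 350 genes named, 6465 of 6565 values over 19 settings kept direction and side of the threshold, 76 lost the call, 24 gained it and 0 changed sign while called. Including both excluded libraries lost the call of 21 genes, among them Tmem119, Gpr34, Slc2a5, Olfml3, Adgrg1, Entpd1, Scoc and Fcrls of the homeostatic list. Hspa5 and Plek lost it under several settings, and Csf1r gained it under several (log2 change -0.58 with library totals alone). With all compared libraries kept, list medians near 0 changed sign for the lysosomal list with library totals alone (-0.005), for the inflammasome (0.05) and integrin (0.08) lists with voom, and for the integrin (0.06) and oligodendrocyte (0.06) lists with both excluded libraries included. Depth limits the low genes: 15585 genes with a count were not tested.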
